A study of Mus musculus with 16 samples.

Results

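The genes described here are 10 activity-dependent genes, Fos, Fosb, Junb, Egr1, Nr4a1, Npas4, Arc, Homer1, Bdnf and Nptx2, and all 10 had a row among the 19999 genes of the count table. They were chosen by name from the known response of neurons to stimulation, with earlier results of these data known. Nuclei were isolated from the medial prefrontal cortex of 16 male mice aged 22 weeks and sequenced with the 10x Genomics 3′ chemistry, which counts RNA molecules by unique molecular identifiers (UMIs). There were 4 groups of 4 mice. Wild-type (WT) mice of the B6;129 background and 3xTg-AD mice were each studied with and without exposure to alcohol vapor, and the exposed groups are called WT alcohol and 3xTg-AD alcohol below. The alleles of 3xTg-AD mice include human APP and human tau transgenes with disease mutations, and the promoter driving the transgenes is not given in the sources used here. Alcohol mice received injections of ethanol with pyrazole, which blocks alcohol dehydrogenase, before intermittent sessions in vapor chambers. Controls received pyrazole in saline and breathed air, so pyrazole was common to all 4 groups. All mice were trained in a water maze before the tissue was taken, some days after the last vapor session, and every level below is a level after this interval.

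In neurons, calcium entry through synaptic receptors and voltage-gated channels activates kinases that phosphorylate transcription factors already bound at promoters, such as CREB and serum response factor. Genes that need no new protein for this response are switched on within minutes, and their mRNAs are short-lived. Some encode transcription factors that drive a later wave of genes, and others encode proteins that act directly at the synapse. Fos, Fosb and Junb encode subunits of the AP-1 factor. Egr1 is a zinc finger factor, Nr4a1 an orphan nuclear receptor, and Npas4 a factor that responds to calcium and is largely restricted to neurons. Arc acts in the removal of AMPA receptors from the synapse, and Homer1 is a scaffold that links metabotropic glutamate receptors to other postsynaptic proteins, with a short activity-induced form that breaks this link. Bdnf is a secreted neurotrophin, and Nptx2 is a secreted pentraxin that gathers AMPA receptors. Counts at the 3′ end were deposited per gene, so the short and long forms of Homer1, the spliced forms of Fosb and the alternative first exons of Bdnf cannot be told apart here.

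For members that varied together between mice, and for Homer1, the member called for alcohol in the sum of glutamatergic nuclei, the sequence before an annotated RefSeq start is given here. RefSeq windows of the GRCm38.p6 build were at hand for 7 members with 14 annotated starts, and Arc, Egr1 and Nptx2 had none. The 250 bases before each start were searched on both strands for the short CREB site TGACG, for the full site TGACGTCA, which contains the short site, and for the CArG box bound by serum response factor. The short site was present in 7 of the 14 member windows and in 17.8% of all 32851 windows. The full site was present in 0 of 14 member windows and in 1.55% of all windows, and the CArG box in 0 of 14 and in 1.47%. At such low shares 0 of 14 is no result about the members, and sites beyond the 250 bases were not searched. Each of the 7 members had 1 window with the short site, and Fosb, Npas4 and the third Bdnf start are not printed. A match is a run of letters and not a measured binding site. The sequences of Fos (chr12:85473640-85473889, plus strand), Junb (chr8:84978749-84978998, minus strand), Nr4a1 (chr15:101266596-101266845, plus strand) and the first Homer1 start (chr13:93303507-93303756, plus strand) follow, 5′ to 3′ in the direction of transcription, with the short site TGACG or its reverse complement CGTCA in capitals.
Fos: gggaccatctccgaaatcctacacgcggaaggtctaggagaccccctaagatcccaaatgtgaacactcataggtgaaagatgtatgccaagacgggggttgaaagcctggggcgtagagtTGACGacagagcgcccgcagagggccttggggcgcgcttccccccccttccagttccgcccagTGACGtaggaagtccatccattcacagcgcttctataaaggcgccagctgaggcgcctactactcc
Junb: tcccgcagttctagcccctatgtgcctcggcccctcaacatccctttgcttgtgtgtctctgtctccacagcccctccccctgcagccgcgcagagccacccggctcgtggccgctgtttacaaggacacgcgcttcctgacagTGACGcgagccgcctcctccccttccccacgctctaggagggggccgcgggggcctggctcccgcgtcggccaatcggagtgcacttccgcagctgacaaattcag
Nr4a1: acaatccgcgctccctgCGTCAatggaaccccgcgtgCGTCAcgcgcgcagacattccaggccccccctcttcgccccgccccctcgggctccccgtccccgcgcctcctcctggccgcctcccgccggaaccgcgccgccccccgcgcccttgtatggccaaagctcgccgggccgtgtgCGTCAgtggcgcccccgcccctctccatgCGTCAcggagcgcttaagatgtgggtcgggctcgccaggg
Homer1: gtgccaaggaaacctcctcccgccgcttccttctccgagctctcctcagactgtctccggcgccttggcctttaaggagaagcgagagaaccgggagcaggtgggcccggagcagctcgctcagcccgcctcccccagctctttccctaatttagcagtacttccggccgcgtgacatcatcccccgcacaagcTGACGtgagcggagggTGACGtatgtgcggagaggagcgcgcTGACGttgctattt
In the Fos window the short sites began 129 and 66 bases before the start, and in that of Junb 106 bases before it. Nr4a1 had 4, and the 3 of Homer1 began 56, 40 and 14 bases before its start. In the GENCODE annotation Nr4a1 begins at 101254269 and Homer1 at 93299635, so both windows lie inside the annotated gene, before a later transcript start.

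Each mouse gave 4955 to 9096 nuclei and 9622031 to 17544364 UMIs. Nuclei were assigned to cell types by marker genes, with the 10 members left out of the assignment, and the names below mean nuclei like that type. All markers of the astrocyte, oligodendrocyte, precursor (OPC) and microglia classes were raised at least 1.5-fold in them, and 4 to 6 markers of each glutamatergic type. A GABAergic type set up with Sncg markers was led by Frem1 and Adarb2 and is named after these. Between 16.9% and 41.4% of the nuclei of a mouse remained unnamed. In WT mice 26 and 27 and 3xTg-AD mouse 12, none of them exposed to alcohol, the ribosomal RNA-like transcript Gm42418 took 17914 to 29046 CPM (counts scaled to the library total of their sample), against 2059 to 4249 CPM in the other 13 mice. By exposure, Gm42418 was 2059 to 3912 CPM with alcohol and 3477 to 29046 without. WT mouse 27 also held 1211 nuclei of the Meis2 type, and 1694 of 112806 barcodes occurred in more than 1 library. Slc17a7, the vesicular glutamate transporter that defines glutamatergic neurons, reached 44.6% of its glutamatergic level in astrocyte nuclei, 56.2% in oligodendrocyte, 51.3% in OPC, 66.0% in microglia, 52.3% in vascular and 26.7% in GABAergic nuclei, so levels of the members in these classes stood on a background of neuronal RNA.

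The number of molecules behind each member differed widely. Homer1 gave 50992 UMIs and was detected in 29.3% of nuclei, followed by Egr1 with 22917, Junb with 17456, Nr4a1 with 10385, Bdnf with 8447 and Arc with 8002 UMIs. Npas4 had 4215, Nptx2 2542, Fos 2491 and Fosb 1169 UMIs. In the mouse with the fewest, 27 nuclei held a Fosb UMI. Low counts limited what could be tested, and of the 16 cell types with enough nuclei, Homer1 passed the filter on low counts in 16, Egr1 in 15, Junb in 14, Nr4a1 in 8, Arc and Bdnf in 6, Fos and Npas4 in 5, Nptx2 in 4 and Fosb in 2.

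Levels were first compared between cell classes, as CPM summed per mouse and class, over all 16 mice. Only neighboring classes in the order of a gene's levels with a mean of at least 10 UMIs per mouse were tested, by sign-flip permutation within mouse on log2(CPM + 1), 2-sided, with Benjamini-Hochberg adjustment over 62 pairs, of which 27 passed. Npas4 was 26.02 ± 11.6 CPM (SD, n = 16 mice) in glutamatergic and 9.61 ± 4.84 in GABAergic nuclei, higher in 16 of 16 mice (permutation, adjusted p = 0.000372). Nr4a1 was 57.7 ± 22.1 CPM in glutamatergic and 26.1 ± 8.39 in GABAergic nuclei, again higher in 16 of 16 mice (permutation, adjusted p = 0.000443), with astrocyte nuclei at 22.2 CPM below both. Homer1 was 285.8 ± 90.8 CPM in glutamatergic nuclei, above the 122.2 CPM of OPC nuclei in 16 of 16 mice (permutation, adjusted p = 0.000372). The other 6 classes held 104 to 122 CPM of Homer1 and no neighbors among them passed the test.

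Arc and Bdnf, which could be ordered in 3 classes, shared 1 order, with glutamatergic nuclei above astrocyte nuclei and astrocyte nuclei above GABAergic nuclei. Arc was 37.7 ± 20.6 CPM in glutamatergic, 20.9 ± 12.9 in astrocyte and 11.7 ± 8.36 in GABAergic nuclei, with each step in 14 of 16 mice (permutation, adjusted p = 0.00186 and 0.00237). Bdnf was 40.6 CPM in glutamatergic, 24.6 in astrocyte and 16.0 in GABAergic nuclei (permutation, adjusted p = 0.000697 and 0.00275). Junb, a partner of both Fos proteins, had its highest level outside neurons. It reached 186.9 ± 69.1 CPM in microglia nuclei and 79.0 ± 33.6 in glutamatergic nuclei, with microglia higher in 16 of 16 mice (permutation, adjusted p = 0.000443). Glutamatergic nuclei were in turn above the 57.8 CPM of GABAergic nuclei in 16 of 16 mice (permutation, adjusted p = 0.000372). Egr1 was 81.7 ± 29.3 CPM in glutamatergic nuclei and 95.1 to 136.4 CPM in the astrocyte, OPC, oligodendrocyte, microglia and vascular classes. No neighbors in the upper part of this order differed beyond their spread, while glutamatergic nuclei exceeded the 65.9 CPM of GABAergic nuclei (permutation, adjusted p = 0.00275). Fos was 10.2 CPM in glutamatergic and 8.61 in GABAergic nuclei (permutation, adjusted p = 0.00477), and it was too sparse to be ordered in the other classes.

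The unnamed nuclei, which had a median UMI count 0.529 times that of their own mice, carried a large share of several members. Egr1 was 251.6 CPM there, or 307.9% of its glutamatergic level, and Arc was 72.2 CPM, or 191.4%. Npas4 reached 41.6% of its glutamatergic level in them. The cell type of these nuclei is not known, and they enter only the sum over all nuclei.

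**Figure D1:**
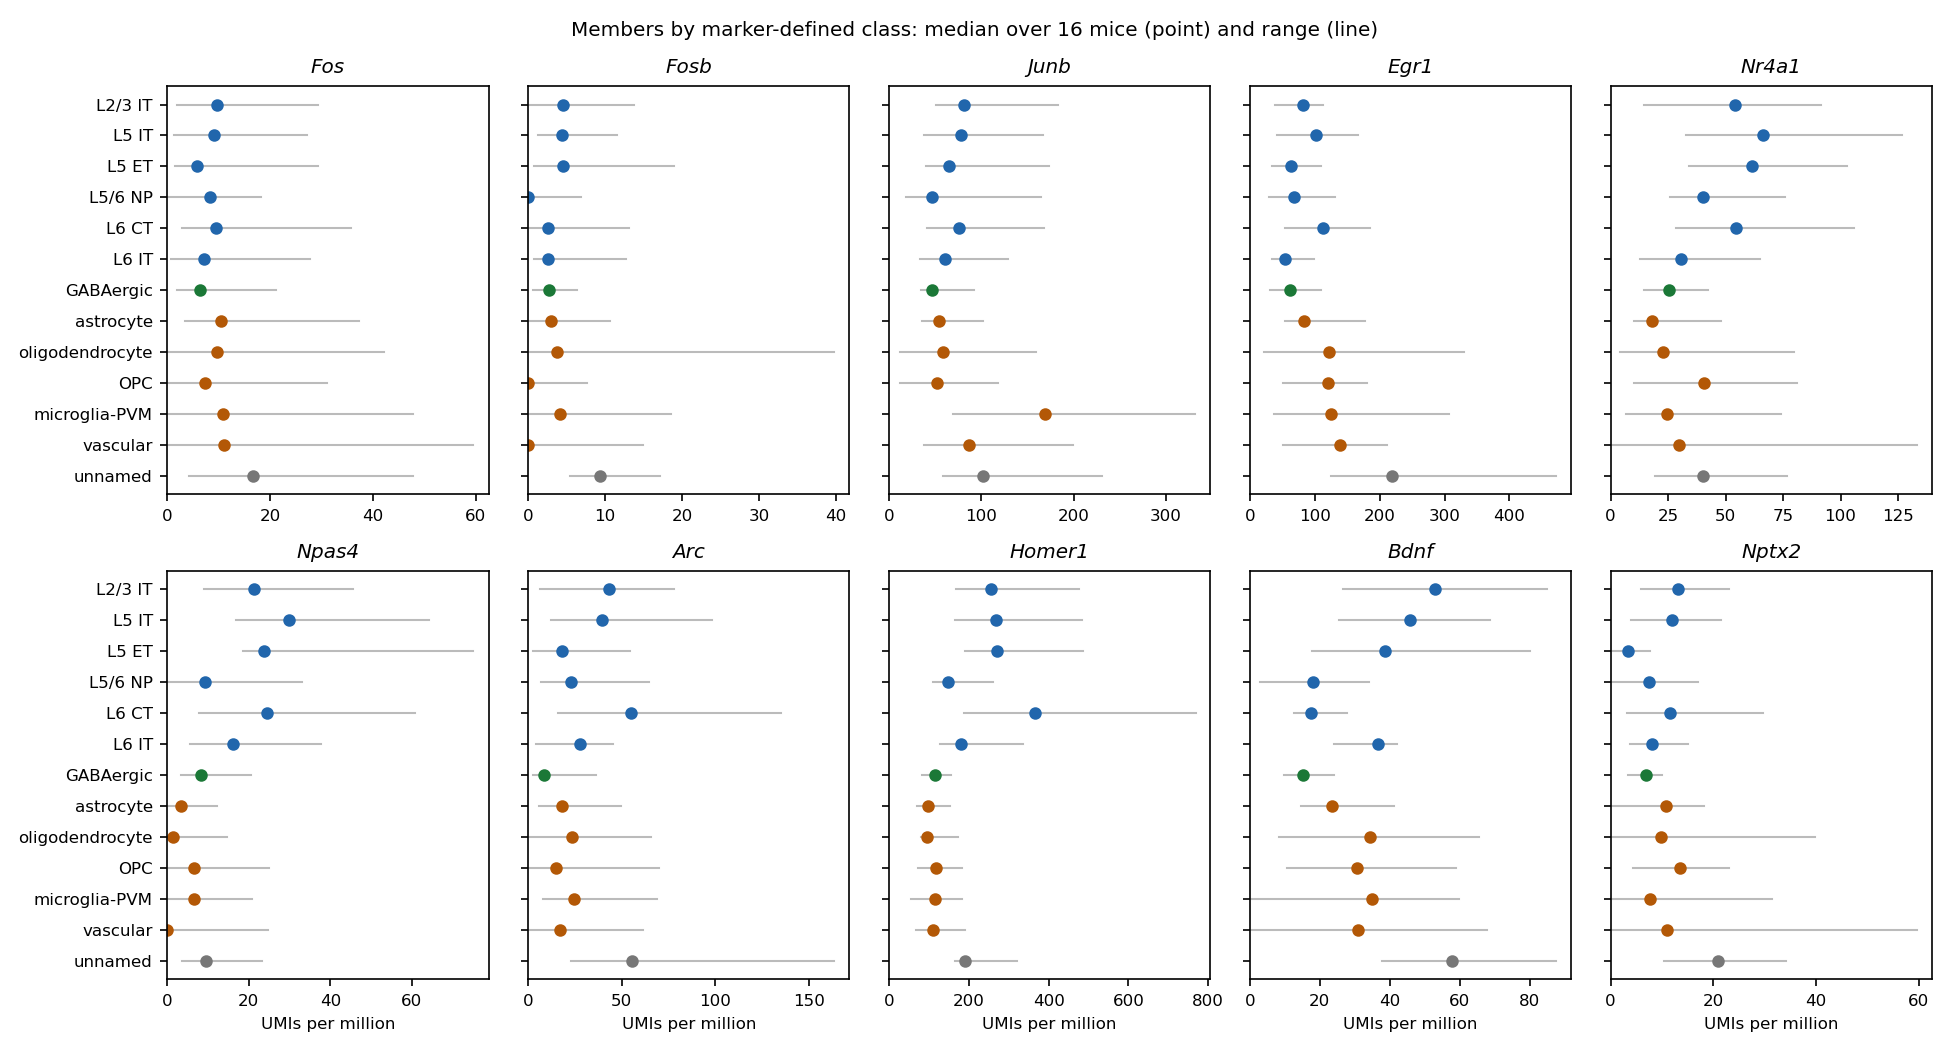
Level of each member in CPM (UMIs scaled to the total of the class in each mouse, linear axis from 0) in the glutamatergic types (blue), GABAergic nuclei (green), non-neuronal classes (orange) and unnamed nuclei (gray). Points are medians and lines the range over 16 mice, and among the named classes Junb is highest in microglia nuclei (mean 186.9 CPM), while Npas4 is highest in glutamatergic types.

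Among the glutamatergic types, named by cortical layer and target as intratelencephalic (IT), extratelencephalic (ET), near-projecting (NP) and corticothalamic (CT) neurons, the members did not share 1 order. Homer1 was highest in L6 CT nuclei at 402.7 CPM, followed by L5 ET nuclei at 307.8 CPM (permutation over 16 mice, adjusted p = 0.00627). L5 ET, L2/3 IT and L5 IT nuclei did not differ beyond their spread. L6 IT nuclei at 212.2 CPM lay below L5 IT nuclei at 294.5 CPM in 16 of 16 mice, and L5/6 NP nuclei were lowest at 162.3 CPM. Arc also led in L6 CT nuclei, at 58.1 CPM, and stepped down through L5 IT at 47.4 and L2/3 IT at 37.9 to L6 IT at 24.5 CPM (permutation, adjusted p = 0.0447, 0.0148 and 0.00682). Egr1 took the same first steps, with 113.2 CPM in L6 CT, 98.1 in L5 IT and 77.5 in L2/3 IT nuclei (permutation, adjusted p = 0.0205 and 0.00275).

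Nr4a1 was instead highest in L5 IT nuclei, at 75.3 CPM, against 64.4 CPM in L5 ET nuclei (permutation, adjusted p = 0.0432). Npas4 was 33.99 CPM in L5 IT nuclei, not beyond the spread of L5 ET nuclei next in order, and fell from 23.1 CPM in L2/3 IT to 16.8 in L6 IT nuclei (permutation, adjusted p = 0.00152). Junb was highest in L2/3 IT nuclei at 93.0 CPM, ahead of L6 CT nuclei at 82.7 CPM (permutation, adjusted p = 0.0182). Unlike Homer1 and Arc, which were highest in L6 CT nuclei, Bdnf was low in them. It was 53.4 CPM in L2/3 IT, 46.1 in L5 IT, 40.7 in L5 ET and 34.3 in L6 IT nuclei, and 18.5 CPM in L6 CT nuclei, below L6 IT nuclei in 16 of 16 mice (permutation, adjusted p = 0.000372). L5/6 NP nuclei, at 17.7 CPM of Bdnf, had too few UMIs to be compared. Nptx2 was 14.02 CPM in L2/3 IT, 11.9 in L5 IT and 11.99 in L6 CT nuclei, and its neighbors could not be separated. Fos and Fosb did not separate any neighboring types.

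To see whether the members occurred in the same nuclei, each glutamatergic nucleus was thinned to 1500 UMIs, which kept 44986 nuclei and left out 6261. Arc was detected in 2262 of them. Among Arc-positive nuclei 20.3% also held an Egr1 UMI, against 10.4% of Arc-negative nuclei, higher in 15 of 16 mice. The same comparison gave 18.2% against 9.78% for Junb (14 mice), 15.0% against 7.39% for Nr4a1 (14 mice) and 8.71% against 3.29% for Npas4 (13 mice). Fos was detected in 4.07% against 1.19% (10 mice) and Fosb in 2.30% against 0.627% (12 mice). Homer1 was detected in 40.1% against 30.9% (15 mice), Bdnf in 6.85% against 5.35% (9 mice) and Nptx2 in 1.95% against 1.53% (8 mice). These shares describe pooled nuclei of libraries that differ in the level of all these genes and carry no test.

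Mice within a group differed strongly, and the 7 early genes Fos, Fosb, Junb, Egr1, Nr4a1, Npas4 and Arc rose and fell together across mice. In glutamatergic nuclei, 3xTg-AD alcohol mouse 33 was among the 4 highest of all 16 mice for 7 of these 7 genes. WT mouse 27 and WT alcohol mouse 7 were among the 4 highest for 5 of them. WT mouse 36 was among the 4 lowest for 7 of 7, and it was the only mouse without alcohol among the 4 lowest for any of them. The other places among the 4 lowest were taken by 5 alcohol mice, WT alcohol mice 18 (6 genes) and 17 (5 genes) and 3xTg-AD alcohol mice 34 (6 genes), 31 (3 genes) and 4 (1 gene). Mixed nuclei, which carried markers of 2 or more classes, made up 27.3%, 28.6%, 29.2% and 27.5% of the nuclei of mice 36, 17, 31 and 34, against 11.9% to 21.02% in the other 12 mice, and the part of this in the low levels was not tested. Over the 16 mice, Pearson's r of log2(CPM + 1) was between 0.699 and 0.94 for the 21 pairs of these genes, and Spearman's rho between 0.709 and 0.953. All 21 pairs passed adjustment over the 45 pairs of members (permutation, largest adjusted p = 0.00618), and with the mean of each group removed r was 0.777 to 0.953. When the 2 mice most distant from the median in the first gene were dropped, r was 0.65 to 0.944.

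Homer1 followed this pattern less closely, with r between 0.281 and 0.643 against the 7 early genes, of which 3 pairs passed (permutation, smallest adjusted p = 0.0165) and 2 did with the group means removed. Bdnf gave r of 0.411 to 0.705 against them, with 3 pairs passing and 7 with the group means removed. Nptx2 was at r of -0.185 to 0.192, and 0 of its 7 pairs passed (permutation, smallest adjusted p = 0.544). The number of all 45 pairs that passed was 27, and 26 when the 3 mice highest in Gm42418 were left out. All points come from the same libraries, and each library's depth and composition enter both genes of a pair.

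**Figure D2:**
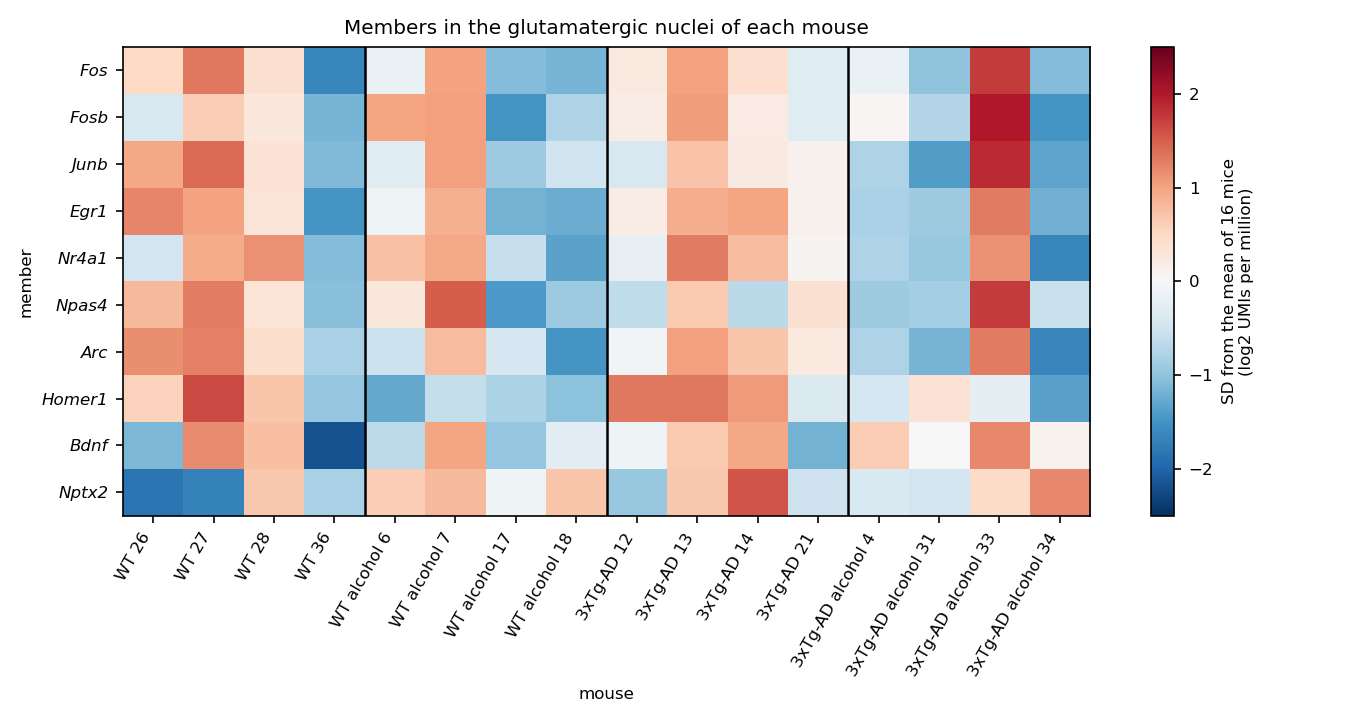
Heat map of the level of each member (rows) in the glutamatergic nuclei of each mouse (columns, by group), as the distance from the mean of all 16 mice in SDs of log2 CPM, red above and blue below. The column of 3xTg-AD alcohol mouse 33 is red and that of WT mouse 36 blue for all 7 early genes.

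**Figure D3:**
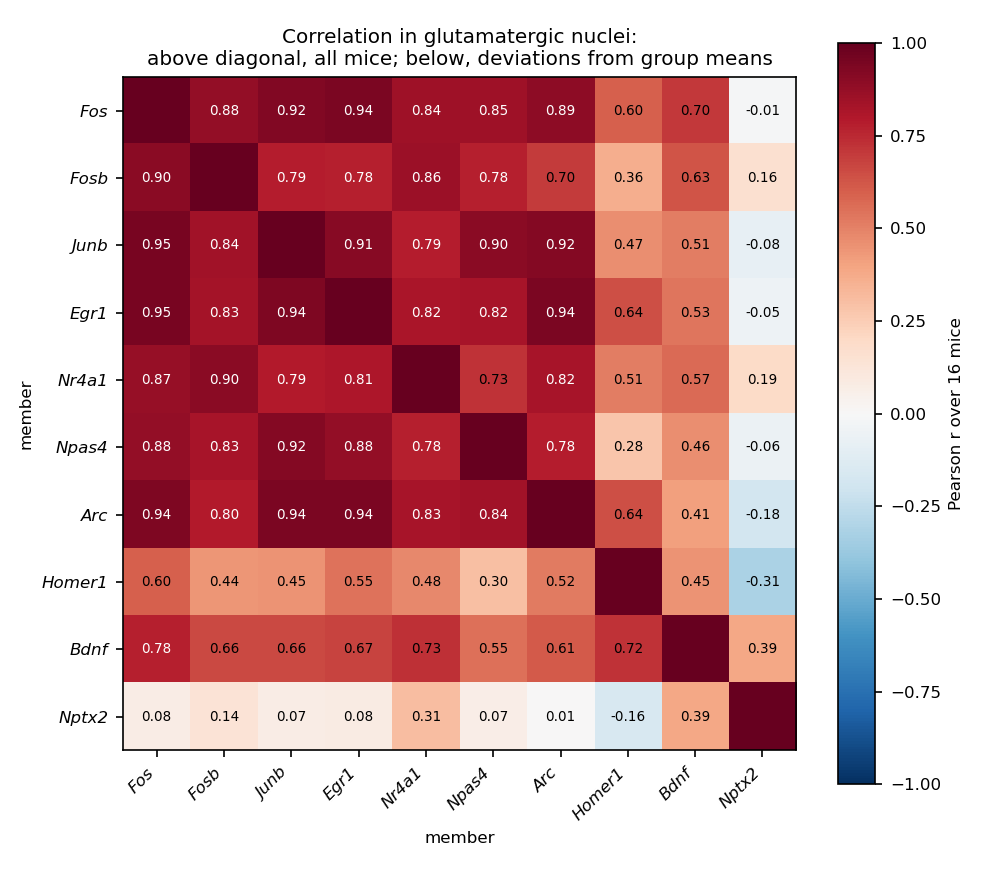
Pearson's r between members over the 16 mice in glutamatergic nuclei, above the diagonal for all mice and below it for the deviations from the group means. The block of the 7 early genes holds r of 0.699 to 0.94 above the diagonal and 0.777 to 0.953 below it, and Nptx2 lies between -0.185 and 0.192 with these genes in all mice.

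Among all other genes tested in glutamatergic nuclei, those most like a member over the 16 mice were listed as a description. The gene most like Junb was Ier2 (r = 0.93), which was also first for Fos (r = 0.875) and Npas4 (r = 0.894). Ier2 is itself an immediate early gene. Dusp6, a phosphatase of the MAP kinase ERK, was first for Egr1 (r = 0.886) and Arc (r = 0.885). Egr2, a relative of Egr1, was first for Nr4a1 (r = 0.927) and Fosb (r = 0.842). Homer1 had other companions, namely the deubiquitinase gene Cyld (r = 0.922), the DNA demethylation enzyme gene Tet3 (r = 0.903) and Spry4 (r = 0.895), an inhibitor of receptor tyrosine kinase signaling. Bdnf was followed most closely by B230216N24Rik (r = 0.866) and Cdkn1a (r = 0.842), and Nptx2 by Hnrnpk (r = 0.886).

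The question of whether alcohol exposure changed the members was asked by averaging the alcohol effect over both genotypes, 8 mice against 8, with the quasi-likelihood test of edgeR on counts summed per mouse and Benjamini-Hochberg adjustment over all genes tested. In glutamatergic nuclei Homer1, which lies on chromosome 13 from 93299635 to 93405129 (GRCm38, plus strand), was lower in alcohol mice. Its normalized level was 328.4, 463.6, 342.0 and 200.7 CPM in WT mice 26, 27, 28 and 36. It was 181.8, 225.9, 212.8 and 197.4 CPM in WT alcohol mice 6, 7, 17 and 18. The first 3 WT mice lay above every WT alcohol mouse, and WT mouse 36 lay among them. In 3xTg-AD mice 12, 13, 14 and 21 the level was 415.7, 416.0, 385.4 and 243.6 CPM. In 3xTg-AD alcohol mice 4, 31, 33 and 34 it was 237.9, 307.7, 254.8 and 177.4 CPM. Again 3 of the 4 mice without alcohol lay above all mice with it, and in all 6 of the 8 mice without alcohol exceeded the highest alcohol mouse.

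The group means of Homer1 were 333.6 ± 107.5 CPM in WT, 204.5 ± 19.1 in WT alcohol, 365.2 ± 82.3 in 3xTg-AD and 244.5 ± 53.7 CPM in 3xTg-AD alcohol mice (SD, n = 4 each). The log2 fold change averaged over genotypes was -0.64 (SE 0.15, edgeR adjusted p = 0.0323) in glutamatergic nuclei and -0.56 (SE 0.14, edgeR adjusted p = 0.0359) in the sum of all nuclei. Among all genes, 1.86% were called lower in glutamatergic nuclei and 2.3% in all nuclei (2.91% and 3.3% in either direction), and Homer1 was the 1 of 10 members called in each. Homer1 gave -0.70 within WT mice (SE 0.22, edgeR adjusted p = 0.296) and -0.58 within 3xTg-AD mice (SE 0.21, edgeR adjusted p = 0.228), and their difference was 0.13 (SE 0.30, edgeR adjusted p = 0.984). The 3 mice highest in Gm42418 were all without alcohol, and without them the log2 fold change in glutamatergic nuclei was -0.46 (edgeR adjusted p = 0.109). With each mouse left out in turn it stayed between -0.73 and -0.54 and was called in 7 of 16 fits. In all nuclei the call was kept in fewer of these fits, and it was also lost without the 3 mice. In mice with alcohol, fewer nuclei with Homer1 and less Homer1 RNA per nucleus cannot be told apart from these sums.

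By cell type, Homer1 was lower in 14 of 16 types, with an unadjusted p under 0.05 in 6. Over all genes, 50.1% of tests were below 0, and types of 1 mouse are not independent, so these counts carry no test. Homer1 was called in 0 of 16 by edgeR and in 5 glutamatergic types by DESeq2. DESeq2 gave an adjusted p for 58 member tests, and its share of calls among all genes is not given here. The 5 calls are therefore no result about Homer1. The log2 fold change was -0.91 in L6 CT nuclei (SE 0.23, edgeR adjusted p = 0.102), -0.68 in L2/3 IT (SE 0.18, adjusted p = 0.0593), -0.63 in L5 IT (SE 0.17, adjusted p = 0.0694), -0.56 in L5 ET (SE 0.13, adjusted p = 0.0512) and -0.55 in L6 IT nuclei (SE 0.17, adjusted p = 0.131). In L6 CT nuclei, where Homer1 was highest, alcohol mice held 195.7 to 401.6 CPM with a median of 261.8. Mice without alcohol held 234.0 to 750.0 CPM with a median of 570.1, and 6 of these 8 lay above every alcohol mouse. L5/6 NP nuclei, with the lowest Homer1 level of the glutamatergic types, gave -0.09 (SE 0.15, edgeR adjusted p = 0.900). Among GABAergic types, Sst nuclei gave -0.43 (SE 0.13, edgeR adjusted p = 0.0920) and Vip nuclei 0.03 (SE 0.22). Glial classes ranged from -0.19 in oligodendrocyte to 0.16 in microglia nuclei. The mix of layers also differed between mice, with L6 CT nuclei at 10.0% to 27.7% of glutamatergic nuclei with alcohol and 5.81% to 23.5% without, and its part in the sum over glutamatergic nuclei was not tested.

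**Figure D4:**
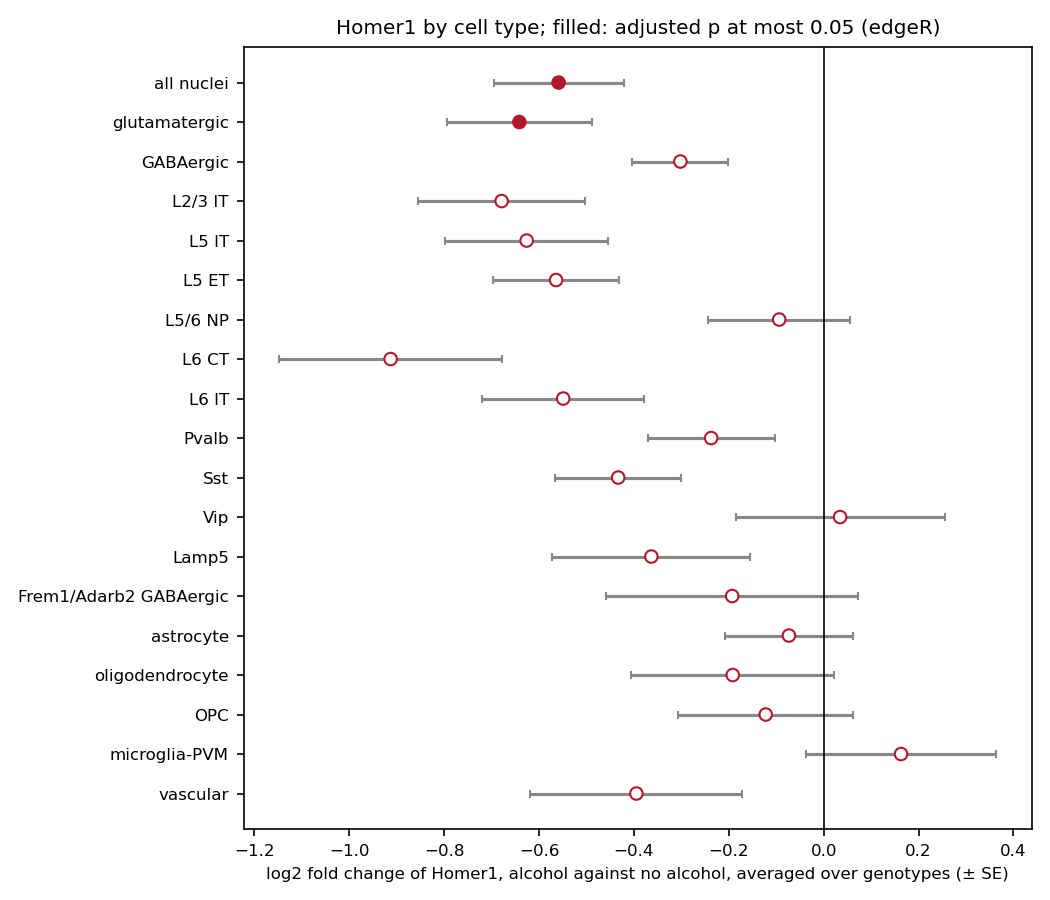
Log2 fold change of Homer1 between alcohol and no alcohol, averaged over genotypes, in all nuclei, the glutamatergic and GABAergic sums and each of the 16 cell types, with lines of 1 SE to each side and filled points where the adjusted p was at most 0.05. Values lie below 0 in 14 of 16 types and reach -0.91 in L6 CT nuclei, and the filled points are all nuclei (-0.56) and glutamatergic nuclei (-0.64).

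Across the 16 cell types, 3 of 81 member tests were called for alcohol, against 0.919% of all tests. An unadjusted p under 0.05 was found in 19 of 81, and the share of all tests at that threshold is not given here. The 3 calls were Arc in astrocyte nuclei and Egr1 in oligodendrocyte and OPC nuclei. Counts behind them were low, with 189 Arc UMIs in astrocyte nuclei over all 16 mice. Egr1 had 329 UMIs in oligodendrocyte and 285 in OPC nuclei, and 1 mouse held only 31 oligodendrocyte nuclei. Arc in astrocyte nuclei was 5.31 to 18.02 CPM in alcohol mice with a median of 13.98, and 12.2 to 48.8 CPM in the others with a median of 27.6. The groups overlapped, and 6 of 8 mice without alcohol were above every alcohol mouse. The log2 fold change was -1.12 (SE 0.26, edgeR adjusted p = 0.0220), where 0.429% of genes were called lower. Egr1 in OPC nuclei was 63.0 to 161.5 CPM with alcohol (median 88.5) and 129.7 to 235.4 CPM without (median 198.0). Only WT alcohol mouse 7 and 3xTg-AD alcohol mouse 31 reached into the range of the other group, and the log2 fold change was -0.90 (SE 0.20, edgeR adjusted p = 0.0120), against 0.161% of genes called lower. Egr1 in oligodendrocyte nuclei was 27.5 to 225.4 CPM with alcohol (median 100.5) and 89.9 to 379.0 CPM without (median 217.5), with 4 of 8 mice without alcohol above every alcohol mouse. The log2 fold change was -0.92 (SE 0.21, edgeR adjusted p = 0.0420), against 0.0519% of genes called lower.

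With each mouse left out in turn, the call was kept in 11 of 16 fits for Arc in astrocyte nuclei, in 14 for Egr1 in OPC nuclei and in 8 for Egr1 in oligodendrocyte nuclei. DESeq2 made none of these 3 calls, with an adjusted p of 0.564 for Egr1 in oligodendrocyte nuclei and no adjusted p for the other two. Leaving out the 3 mice highest in Gm42418 ended both Egr1 calls (log2 fold change -0.81, edgeR adjusted p = 0.137 in OPC and -0.54 in oligodendrocyte nuclei) but not that of Arc in astrocyte nuclei (-1.17, adjusted p = 0.0489), and so did Gm42418 as a covariate. The Egr1 call in OPC nuclei was also lost when only nuclei with 2 or more markers of their type were used, and that in oligodendrocyte nuclei with no filter on low counts or without mixed nuclei. These 3 calls are in classes that carry neuronal RNA, as given above for Slc17a7. In astrocyte nuclei Slc17a7 had a median of 321 CPM with alcohol and 317 without, in oligodendrocyte nuclei 422 and 389, and in OPC nuclei 341 and 395 CPM. In glutamatergic nuclei Arc had a median of 21.2 CPM with and 46.1 without alcohol, and the part of neuronal RNA in the astrocyte value was not tested. The unnamed nuclei made up a median of 33.1% of nuclei in alcohol mice and 26.2% in the others. For Egr1 the levels in both glial classes were above that in glutamatergic nuclei, whose own log2 fold change was -0.42 (SE 0.26, edgeR adjusted p = 0.391), but below the 251.6 CPM of the unnamed nuclei, and the part of RNA from other nuclei in the Egr1 values was not tested.

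None of the 7 early genes passed the test for alcohol in glutamatergic nuclei. Arc was 66.8, 70.9, 42.5 and 19.2 CPM in the WT mice and 22.9, 53.0, 24.6 and 12.5 CPM in the WT alcohol mice. It was 30.9, 61.0, 49.7 and 37.5 CPM in 3xTg-AD mice and 19.6, 15.3, 72.4 and 11.1 CPM in 3xTg-AD alcohol mice. Mouse 33 was the highest of all and the other 3 of its group were among the lowest, so the log2 fold change of -0.71 had an SE of 0.43 (edgeR adjusted p = 0.373). Without mouse 33 it was -1.18, also not called. In all nuclei Arc gave -0.88 (SE 0.34, edgeR adjusted p = 0.165) and Egr1 -0.48 (SE 0.22, edgeR adjusted p = 0.226). By cell type, the log2 fold change was below 0 in 15 of 15 types tested for Egr1, 8 of 8 for Nr4a1, 6 of 6 for Arc, 5 of 5 for Fos, 13 of 14 for Junb, 4 of 5 for Npas4 and 0 of 2 for Fosb, beside 50.1% of all tests over the 16 types. Types of 1 mouse share its state and are not independent, so these counts carry no test. Nr4a1 came closest to a further call in astrocyte nuclei, at -0.83 (edgeR adjusted p = 0.0806). Junb and Fos gave -0.25 (SE 0.32) and -0.32 (SE 0.52) in glutamatergic nuclei, and 0.03 and 0.08 with Gm42418 as a covariate. Npas4 and Fosb gave -0.07 (SE 0.33) and 0.14 (SE 0.43) in glutamatergic nuclei. Npas4 was above 0 with the same covariate, and Fosb lay on either side of 0 with 1 mouse left out in turn.

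The secreted members Bdnf and Nptx2 were not called for alcohol either. Bdnf in glutamatergic nuclei was 38.4 ± 13.6 CPM in WT, 38.1 ± 8.23 in WT alcohol, 41.1 ± 8.83 in 3xTg-AD and 44.7 ± 5.91 CPM in 3xTg-AD alcohol mice (SD, n = 4 each). Its log2 fold change with alcohol was 0.06 (SE 0.15, edgeR adjusted p = 0.873). Nptx2 was 4.87, 5.18, 12.9 and 7.32 CPM in the WT mice and 12.7, 13.6, 9.63 and 12.98 CPM in the WT alcohol mice. WT mouse 28 lay among the alcohol mice and the other 3 below all of them. In 3xTg-AD mice it was 6.93, 12.86, 17.99 and 8.23 CPM without alcohol and 8.67, 8.40, 12.03 and 15.7 CPM with it, and these groups overlapped. The alcohol effect averaged over genotypes was 0.31 (SE 0.22, edgeR adjusted p = 0.455), and it turned below 0 with Gm42418 as a covariate. In L6 CT nuclei Nptx2 was 3.76, 4.30, 8.05 and 6.90 CPM in WT mice and 14.04, 9.05, 16.2 and 18.7 CPM in 3xTg-AD alcohol mice, groups that did not overlap. The share of all genes whose groups did not overlap is not given here. WT alcohol mice ranged from 4.86 to 17.7 CPM and 3xTg-AD mice without alcohol from 8.42 to 28.9 CPM, and both overlapped the 3xTg-AD alcohol mice. Between 3xTg-AD alcohol and WT mice, the log2 fold change of 1.29 (SE 0.41) did not pass (edgeR adjusted p = 0.126). Counts were low, with 210 Nptx2 UMIs in L6 CT nuclei over all 16 mice and 1481 over all glutamatergic nuclei.

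**Figure D5:**
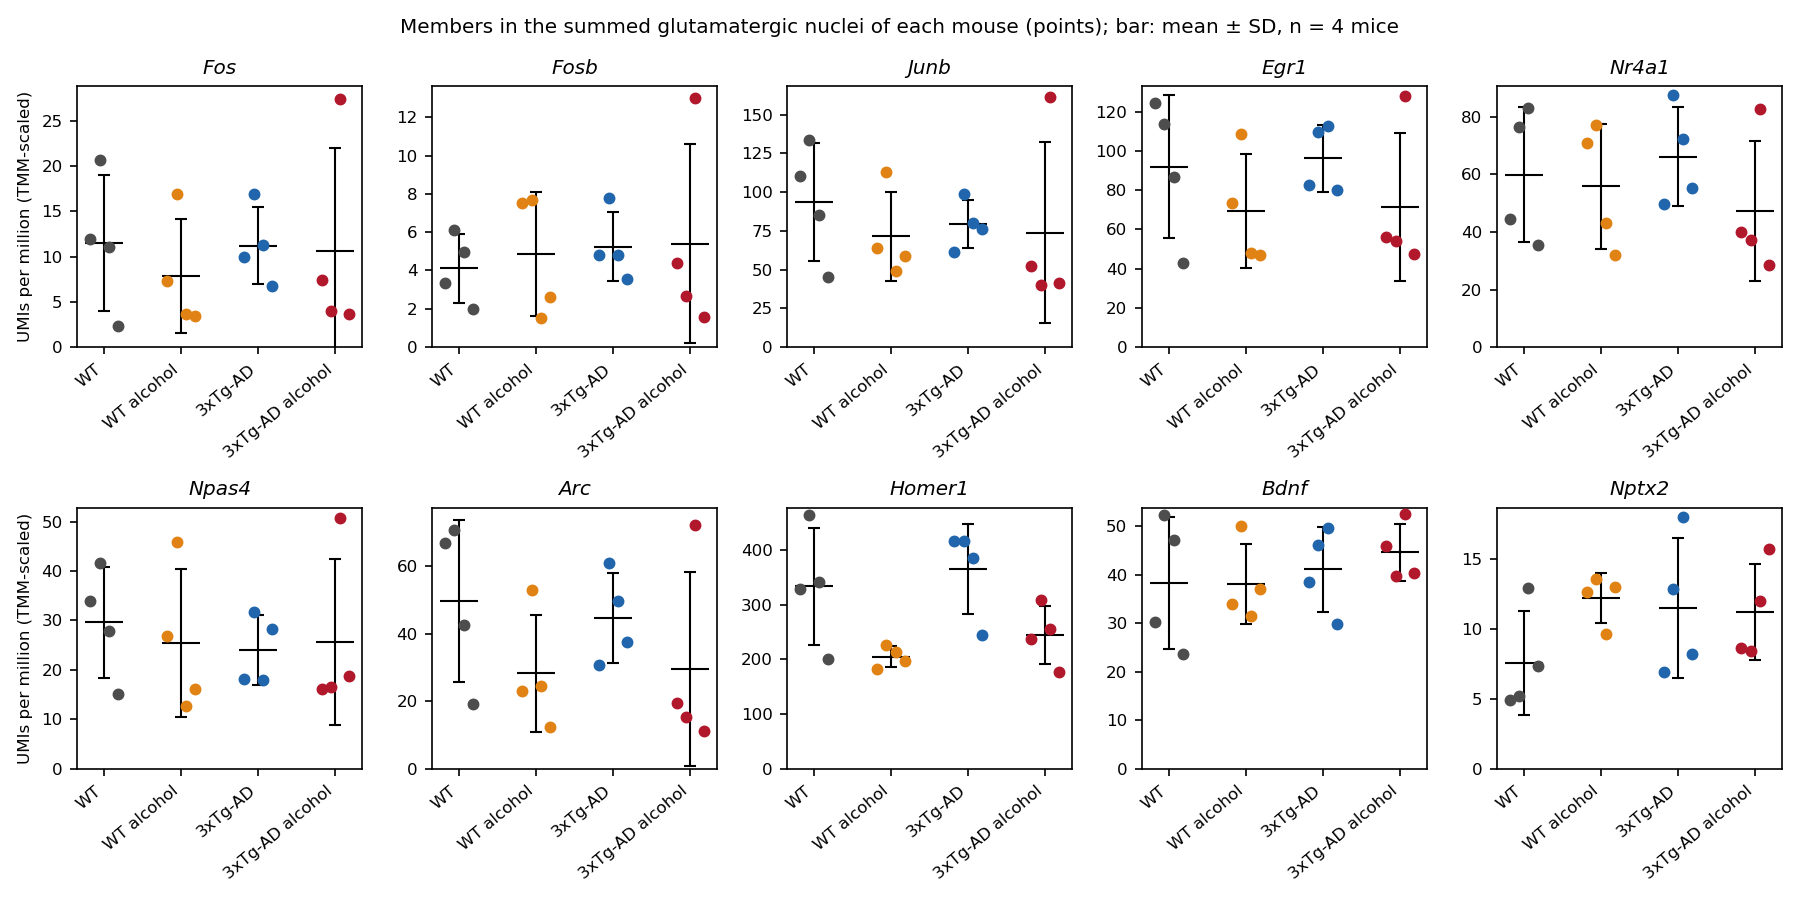
Normalized level of each member in glutamatergic nuclei in CPM (linear axis from 0) by group, with 1 point per mouse and bars for the mean and SD of 4 mice. Homer1 is lower in both alcohol groups (means 204.5 and 244.5 CPM against 333.6 and 365.2), and 3xTg-AD alcohol mouse 33 stands above its group for Fos, Junb, Egr1, Npas4 and Arc.

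Genotype, averaged over alcohol, gave 1 call in 81 member tests. This is near the 1.13% of all tests called, so the count is no result about the members. An unadjusted p under 0.05 was found in 12 of 81, and the share of all tests at that threshold is not given here. Egr1 in oligodendrocyte nuclei was 206.9, 228.0, 176.6 and 89.9 CPM in WT and 98.9, 27.5, 102.1 and 58.8 CPM in WT alcohol mice. It was 263.9, 288.4, 379.0 and 146.6 CPM in 3xTg-AD and 146.1, 225.4, 124.1 and 93.7 CPM in 3xTg-AD alcohol mice. Within each treatment the genotypes overlapped, and the log2 fold change was 0.76 (SE 0.21, edgeR adjusted p = 0.0489), where 0.441% of genes were called higher. The call was kept in 7 of 16 fits with 1 mouse left out, and DESeq2 made 0 calls in these tests. Homer1 was above 0 in 16 of 16 types, between 0.03 and 0.40, with 3 at an unadjusted p under 0.05 and 0 called by edgeR. Over all genes, 50.4% of tests were below 0, and types of 1 mouse are not independent, so these counts carry no test. In glutamatergic nuclei 0 of 10 members were called by edgeR, against 2.91% of all genes (3.28% in the sum of all nuclei, where 0 members were called as well), and their log2 fold changes lay between -0.13 and 0.29.

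The comparisons of single groups gave 0 calls in each case, by edgeR and by DESeq2 over the cell types and by edgeR in all nuclei and in glutamatergic nuclei. Beside these 0 calls, 0.0324% of all tests were called for WT alcohol versus WT mice. The share was 0.0179% in the sum of all nuclei and 0.00644% in glutamatergic nuclei. For 3xTg-AD versus WT mice it was 0.2% (0.435% in all and 0.522% in glutamatergic nuclei). For 3xTg-AD alcohol mice it was 0.194% versus 3xTg-AD (0.483% and 0.496%) and 0.433% versus WT alcohol mice (0.942% and 0.844%). Versus WT mice it was 1.23% (4.06% and 3.72%). An unadjusted edgeR p under 0.05 was found in 12, 7, 16, 7 and 5 of the 81 member tests, in the same order. The share of all tests at that unadjusted threshold is not given here, so these counts are no result about the members. These comparisons share groups and are not independent of each other. The interaction of genotype and alcohol had 2 member tests at an unadjusted p under 0.05, and 0% of all tests were called.

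Other genes of the activity response were read from lists of known early and late genes in glutamatergic nuclei, for alcohol averaged over genotypes. Of 118 listed genes tested outside the members 3 were called, or 2.54%, near the 2.91% of all genes called, so their calls are no result about the lists. Of the 10 members, 0 were called higher and 1 lower, with a median log2 fold change of -0.27, beside 0.00455 over all genes. Early response transcription factors outside the members had 21 genes tested, 0 called by edgeR and a median of -0.195. Early response signaling genes had 24 tested, 0 called and a median of -0.155. Among 24 late response genes 1 was called, the orphan receptor gene Gpr22, which rose by 0.34 on the log2 scale (edgeR adjusted p = 0.0131), and the list's median was 0.02. Among 23 upstream regulators Crtc3, a coactivator of CREB, rose by 0.40 (edgeR adjusted p = 0.0207), and the median was 0.01. The 15 tested binding partners of Bdnf, Nptx2 and Homer1 had 0 calls and a median of -0.04. Of 13 stress and RNA quality genes the mitochondrial gene mt-Co1 rose by 0.30 (edgeR adjusted p = 0.0471), and their median was -0.02.

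In the sum of all nuclei the same comparison called 4 of 121 listed genes, or 3.31%, beside 3.3% of all genes. They were Gpr22 (log2 fold change 0.29, edgeR adjusted p = 0.0197), the neuropeptide gene Tac1 (0.51, adjusted p = 0.0349), the clock gene Per1 (-0.50, adjusted p = 0.0408) and Gm42418 (-1.93, adjusted p = 0.0494). The other calls were also no more frequent than among all genes. In 3xTg-AD alcohol versus WT mice, 2 of 118 listed genes were called in glutamatergic nuclei (1.69%, beside 3.72% of all genes), with higher Crtc3 (0.59, edgeR adjusted p = 0.0112) and lower Pcsk1 (-0.68, adjusted p = 0.0250), the prohormone convertase of the late response. Over all nuclei 2 of 121 were called (1.65%, beside 4.06%), and Pcsk1 (-0.71, edgeR adjusted p = 0.0210) and Gria4 (-0.48, adjusted p = 0.0480), an AMPA receptor subunit bound by pentraxins, were lower in the same comparison. Pdyn, which encodes the precursor of dynorphin peptides, was lower in all nuclei of 3xTg-AD than of WT mice averaged over alcohol (-0.53, edgeR adjusted p = 0.0424), as the 1 call among 121 listed genes (0.826%, beside 3.28%).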

How the data were processed

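Single-nucleus RNA-Seq of 16 mice was analysed, with 4 mice per group. The authors aligned the reads to mm10 with Cell Ranger 6.1.1, which runs STAR, per the submitters' processing notes, and deposited UMI counts per gene and nucleus without normalization. Filters on nuclei are not given in the sources used here for this table, so all 114512 nuclei were kept, and doublets were not removed. The members and gene lists were chosen with earlier results of these data known.

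Nuclei were assigned to cell types by a multinomial likelihood seeded from marker genes in 3 passes, without the members. A difference from the study's types can come from these rebuilt names. Counts were summed per mouse and type. Sums of fewer than 10 nuclei were dropped, and types with fewer than 3 remaining mice in a group were not tested. The sums were fitted with edgeR 4.0.16 in R 4.3.3 (TMM, filterByExpr, robust quasi-likelihood, 1 mean per group), and Benjamini-Hochberg adjusted p-values, over all genes tested in a type and contrast, were called at 0.05. Levels by group are TMM-normalized CPM and levels by class are CPM without TMM. Permutation tests used 100000 resamples. The 8 contrasts were the 5 between groups, the interaction and the 2 averaged effects. Alternatives were DESeq2 1.42.0, its size factors, no filter on low counts, a stricter filter on nuclei (500 genes, 5% mitochondrial UMIs), other cell type assignments, Gm42418 as a covariate, leaving out the 3 mice with the most Gm42418, and leaving out each mouse. The fit was tested on simulated counts. Named genes were all members, listed genes called in all or glutamatergic nuclei, and the 3 genes most like each member. Labels give each mouse as 1 sample. Errors are SDs between mice. Counts cover 9622031 to 17544364 UMIs per mouse, and sparse members passed the filter on low counts in few cell types. Sequences are RefSeq's, of the GRCm38.p6 build. A further allele of the 3xTg-AD mice and a marker gene are not reported here.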

Additional observations from a re-analysis of the deposited data

Results flagged for a closer look

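In groups of 4 mice, a mouse is named here when its gap to the nearest other mouse, over the range of the group, exceeded Dixon's critical value. Of 68 groups, 6 did, where chance gives about 1 in 20 for independent groups. These 6 were not independent, because 5 of them were 1 mouse in genes that rose and fell together across mice. In glutamatergic nuclei 3xTg-AD alcohol mouse 33 was the highest of its group and exceeded this value for 5 members. It had 27.46 CPM of Fos where the next mouse had 7.42, 161.1 CPM of Junb against 52.4, and 127.8 CPM of Egr1 against 55.8. It had 50.77 CPM of Npas4 against 18.8 and 72.38 CPM of Arc against 19.6. The same mouse had 254.8 CPM of Homer1, inside the range of its group. It also had the highest share of unnamed nuclei, 41.4%, and the part of this in its levels was not tested. In OPC nuclei, 3xTg-AD mouse 21 was the lowest of its group for Egr1, with 173.7 CPM where the next mouse had 209.9.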

How the results depend on the processing

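No paired analysis was possible because the replicate numbers are the numbers of single mice and occur in 1 group each. With 1 mouse left out at a time, the count of member calls over cell types ranged from 0 to 2 for WT alcohol versus WT, 0 to 1 for 3xTg-AD alcohol versus 3xTg-AD and versus WT, 1 to 8 for alcohol averaged over genotypes (3 with all mice), and 0 to 1 for genotype averaged over alcohol (1 with all mice), and it was 0 throughout in the other contrasts. The 8 calls arose without WT mouse 36, 7 on omitting 3xTg-AD mouse 21 and 6 on omitting 3xTg-AD alcohol mouse 31, and 1 remained without WT mouse 28, WT alcohol mouse 6, 3xTg-AD mouse 13 or 3xTg-AD alcohol mouse 33. For alcohol averaged over genotypes, DESeq2 made 5 calls in 58 member tests, all of them Homer1 in glutamatergic types and none among the 3 of edgeR. The share of all genes that DESeq2 called is not given here. When the 3 mice highest in Gm42418 were omitted, 1 call was made (Arc in astrocyte nuclei), and the Gm42418 covariate gave 2 (Arc and Nr4a1 in astrocyte nuclei), so both Egr1 calls were lost under each. Without mixed nuclei there were 2 (Homer1 in L5 ET and Egr1 in OPC nuclei), with Arc in astrocyte nuclei under the filter on low counts. Nuclei with 2 or more markers of their type gave 2 (Arc in astrocyte and Egr1 in oligodendrocyte nuclei), no filter 3 (Homer1 in L5 ET, Arc in astrocyte and Egr1 in OPC nuclei), and DESeq2 size factors 4, the 3 and Homer1 in L5 ET nuclei. For 3xTg-AD alcohol versus 3xTg-AD there was 1 with no filter, with Gm42418 as a covariate and without the 3 mice, and versus WT 1 with no filter. The 1 genotype call was 0 under DESeq2, DESeq2 size factors, no filter, the stricter nuclei and both other cell type assignments.

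The log2 fold change of Homer1 with alcohol in glutamatergic nuclei stayed between -0.73 and -0.54 with 1 mouse left out and was called in 7 of 16 fits (adjusted p 0.00936 to 0.0772). The call was lost without WT mouse 27 or 28, WT alcohol mouse 6, 17 or 18, 3xTg-AD mouse 13, or 3xTg-AD alcohol mouse 4, 33 or 34. In all nuclei it was -0.64 to -0.48, called in 4 of 16, on omitting WT mouse 36, WT alcohol mouse 7, 3xTg-AD mouse 21 or 3xTg-AD alcohol mouse 31. The Gm42418 covariate moved it to -0.43 (adjusted p = 0.191) in glutamatergic and -0.37 (adjusted p = 0.210) in all nuclei, and without the 3 mice -0.46 (0.109) and -0.40 (0.114). Gm42418 itself differed with alcohol, at 2059 to 3912 CPM against 3477 to 29046 without, so this covariate and alcohol cannot be fully told apart. Arc in astrocyte nuclei (-1.26 to -0.96) was called in 11 of 16 fits with 1 mouse left out, and lost without WT mouse 27 or 28, WT alcohol mouse 6, 3xTg-AD mouse 13 or 3xTg-AD alcohol mouse 33. Egr1 in OPC nuclei was called in 14, and lost at -0.83 without WT alcohol mouse 6 and -0.82 without 17. Egr1 in oligodendrocyte nuclei was called in 8 for alcohol (-1.10 to -0.82) and 7 for genotype. Its alcohol call was lost without WT mouse 26 or 28, WT alcohol mouse 18, 3xTg-AD mouse 12, 13 or 14, or 3xTg-AD alcohol mouse 4 or 33, and its genotype call without WT mouse 28 or 36, WT alcohol mouse 7 or 18, 3xTg-AD mouse 12, 13 or 14, or 3xTg-AD alcohol mouse 4 or 31.

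Signs turned only in members that were not called. For alcohol in glutamatergic nuclei, Gm42418 as a covariate gave log2 fold changes of 0.084 for Fos, 0.029 for Junb, 0.12 for Npas4 and -0.11 for Nptx2. Leaving out the 3 mice gave 0.028 for Fos and 0.10 for Npas4, and nuclei with 2 or more markers gave -0.019 for Bdnf. With 1 mouse left out, Fosb ranged from -0.30 to 0.30, Npas4 from -0.35 to 0.045 and Bdnf from -0.031 to 0.15. For genotype, the covariate gave 0.056 for Junb and 0.15 for Arc, and leaving out the 3 mice 0.23 for Junb, 0.026 for Nr4a1, 0.16 for Npas4 and 0.39 for Arc. With 1 mouse left out, genotype values ranged from -0.28 to 0.58 for Fos, -0.15 to 0.46 for Fosb, -0.45 to 0.065 for Junb, -0.16 to 0.21 for Egr1, -0.25 to 0.061 for Nr4a1, -0.42 to 0.088 for Npas4 and -0.50 to 0.21 for Arc.
Of 812 values of single genes under alternatives, 450 with a mouse left out and 229 others kept direction and side of the threshold, 45 and 18 lost the call, 11 and 8 gained one, and 38 and 13 changed sign. The cause was not tested. Depth set what could be tested, and Fosb, with 1169 UMIs, passed the filter in 2 of 16 cell types.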
